A study of Homo sapiens with 2 samples.

Results

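The simple epithelial keratins KRT7, KRT8, KRT18 and KRT19, the cytolinker PLEC and the desmosome genes DSP, JUP, PKP2 and DSG2 were followed in CL1-0 cells stably expressing FDFT1 from a vector and in CL1-0 cells with a control vector. These 9 genes, of 19775 genes with a probe set of their own, were taken by symbol from the platform annotation, and each of their 16 probe sets was kept separate. The set was chosen by function, with the differences between these 2 arrays already known, among them those of PLEC, KRT18, KRT8 and KRT7, so its values are a description and support nothing by themselves. CL1-0, an established line of human lung adenocarcinoma, is labelled as of type II alveolar cell type, and FDFT1 encodes squalene synthase. The cells of each group had been transduced and kept under puromycin for 2 weeks, and each group was measured on 1 Affymetrix array. The promoter of the vectors, and whether each line was a clone or a pool, are not given in the labels used here. The level of FDFT1 was not analysed here, which leaves the overexpression unchecked.

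Keratins are intermediate filament proteins that polymerise as pairs of an acidic type I chain (KRT18, KRT19) and a basic type II chain (KRT7, KRT8), and these 4 are the chains of simple epithelia such as the lining of the airways and alveoli. Plectin ties keratin and vimentin filaments to hemidesmosomes, focal adhesions and the actin cytoskeleton. Desmosomes join the keratin filaments of neighbouring cells: cadherins such as DSG2 span the membrane, JUP (plakoglobin) and PKP2 (plakophilin 2) bind their tails, and DSP (desmoplakin) links this plaque to the filaments.

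The values are MAS5 signals, a summary of the probes of a probe set on a linear scale. Differences are given on the log2 scale as FDFT1 minus control, after both arrays were brought to the same median difference, which added 0.11 to each deposited log2 difference (a shift of -0.11 was removed). Scaled signals under the median of all signals, 12.2, were set to that floor, and a probe set counted as measured if the higher of its scaled signals reached it. No detection calls were used, so signals a little above this floor may still be background. With 1 array per group no p-value and no replicate error can be given, and every difference compares these 2 arrays only. As a scale of error, the SD between 2 probe sets of 1 gene within a signal range was used, per probe set. It was 0.49 on the log2 scale for mean log2 signals under 5, 0.30 from 5 to 7 and 0.22 from 7 to 9, and it leaves out differences between cultures. This error was taken after the floor was set, which bounds differences with a signal under it, so the error under 5 may be too small.

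The 2 arrays were close, with a Pearson r of 0.989 across 14133 brighter probe sets, which are not independent replicates. The median signal was 12.1 on the FDFT1 array and 12.3 on the control array. Signals of 3′ over 5′ control probe sets, a sign of RNA integrity, stood at a ratio of 1.01 on the FDFT1 array and 0.959 on the control array for GAPDH, and 1.154 on the FDFT1 array and 1.157 on the control array for ACTB.

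PLEC was the member with the largest difference. Both of its probe sets were about 2.1-fold lower on the FDFT1 array. PKP2 was 1.43-fold higher and KRT18 1.54-fold lower, each by more than the error of a probe set. The other 5 measured genes, KRT7, KRT8, DSP, JUP and DSG2, lay within that error. Over all measured probe sets the SD of the differences was near the error, at 0.47 for mean log2 signals under 5 and 0.35 from 5 to 7. Passing the error therefore does not set a gene apart. Of the 16 probe sets 9 were measured, covering 8 genes, and KRT19 was not measured. Of these 9, 2 were at least 2-fold lower, against 0.734% of all 29443 measured probe sets, and 0 were at least 2-fold higher, against 0.829% of all. As the genes were chosen with these arrays known, nothing is read from that count. At 1.5-fold, 3 were lower (both PLEC probe sets and KRT18), against 4.46% of all, and 0 were higher, against 5.39%; at 3-fold none was lower or higher, against 0.0509% and 0.0713% of all. On the deposited scale without centring the split over all measured probe sets was 152 higher and 322 lower, against 244 higher and 216 lower after centring. Of the 9 measured probe sets 4 lay above 0 (50.5% of all measured probe sets did) and 5 below (49.5% of all). Their median was -0.12 and their mean -0.16, against a median of 0.0036 over all measured probe sets. Taking the brightest probe set of each gene, the median of the 8 genes was 0.09, so the sign of the median turned on whether PLEC counted once or with both probe sets.

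**Figure D1:**
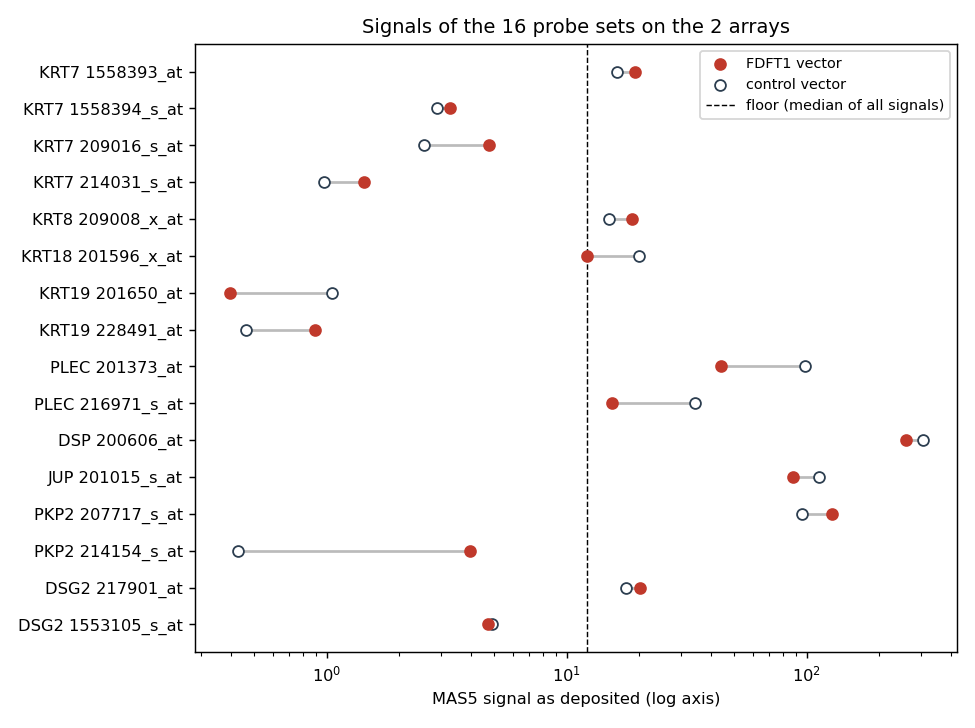
MAS5 signals as deposited (log axis) of the 16 probe sets, with a filled point for the FDFT1 array and an open point for the control array. The dashed line is the floor of 12.2; 7 probe sets lie left of it on both arrays, at signals of 4.89 or less, and both PLEC probe sets are lower on the FDFT1 array.

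The keratin probe sets were dim. Of 8 probe sets for the 4 genes, 3 were measured and 5 were under the floor on both arrays. KRT8, the main type II keratin of simple epithelia, had a signal of 18.8 on the FDFT1 array and 15.0 on the control array (probe set 209008_x_at). Its centred difference was 0.43, or 1.35-fold higher, with an error of 0.49. KRT18, the type I partner of KRT8, had a signal of 12.1 on the FDFT1 array and 20.1 on the control array (201596_x_at). Its difference was -0.62, or 1.54-fold lower, with an error of 0.49, and its FDFT1 signal lay at the floor. It stood at place 770 from the lowest of the 9377 measured probe sets in its signal range. The partner keratins thus had differences of opposite sign, 1.06 apart on the log2 scale, where the combined error of the 2 probe sets was 0.69. As both were chosen with their differences known, nothing is read from this gap. In the GRCh38.p14 gene table KRT8 and KRT18 are immediate neighbours on chromosome 12. Probe sets whose names end in _x_at can bind related transcripts, and both genes have many processed pseudogenes, so these 2 values are uncertain.

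KRT7, a type II keratin of glandular and airway epithelia, had 1 measured probe set of 4. Its signal was 19.3 on the FDFT1 array and 16.2 on the control array (1558393_at), a difference of 0.37 with an error of 0.49. The other KRT7 probe sets gave 3.25, 4.76 and 1.43 on the FDFT1 array, against 2.89, 2.53 and 0.977 on the control array, all under the floor, and no fold is given for them. KRT19, a type I keratin without most of the usual tail domain, gave 0.395 and 0.894 on the FDFT1 array, against 1.06 and 0.462 on the control array (201650_at and 228491_at). These KRT19 signals are far under the floor on both arrays, and the probe sets order the arrays in opposite ways.

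Both PLEC probe sets gave nearly the same difference. The brighter one had a signal of 44.2 on the FDFT1 array and 98.1 on the control array (201373_at). Its centred difference was -1.05, or 2.06-fold lower, with an error of 0.30. The dimmer one had a signal of 15.4 on the FDFT1 array and 34.3 on the control array (216971_s_at). Its difference was also -1.05, or 2.07-fold lower, with an error of 0.49. The 2 differences were 0.0021 apart. Over 3520 genes with exactly 2 measured probe sets the median gap was 0.26, and 0.369% had a gap as small. The PLEC gap depended on the scaling, at 0.054 after quantile normalization and 0.064 after loess. As PLEC was chosen with its difference known, nothing is read from this share or from the places that follow. Counted from the lowest difference, the brighter PLEC probe set was at place 28 of the 7848 measured probe sets with a mean log2 signal from 5 to 7, where 0.497% were at least 2-fold lower. The dimmer one was at place 139 of the 9377 under 5, where 1.83% were at least 2-fold lower. The floor bounds the difference of any probe set with a signal under it, so this place and share depend on it. Over all measured probe sets 216 were at least 2-fold lower with this floor and 1043 with no floor.

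Of 6535 genes with at least 2 measured probe sets, 3 had all of them at least 2-fold lower, or 0.0459%. These were PLEC, RASEF and MELTF-AS1, and IKZF1 was the 1 gene with all of them at least 2-fold higher, or 0.0153%. RASEF, MELTF-AS1 and IKZF1 are named because the count is small, after their values were seen. As PLEC was chosen with its difference known, nothing about it is read from this count. Probe sets of 1 gene share the RNA of 1 sample, so 2 such values are not replicates of the condition. PLEC is on chromosome 8, beside EPPK1, which encodes the related plakin epiplakin. EPPK1 was at 0.31 on its brightest probe set, with a signal of 16.6 on the FDFT1 array and 14.5 on the control array and an error of 0.49, and its 4 measured probe sets ranged from -0.36 to 0.42.

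**Figure D2:**
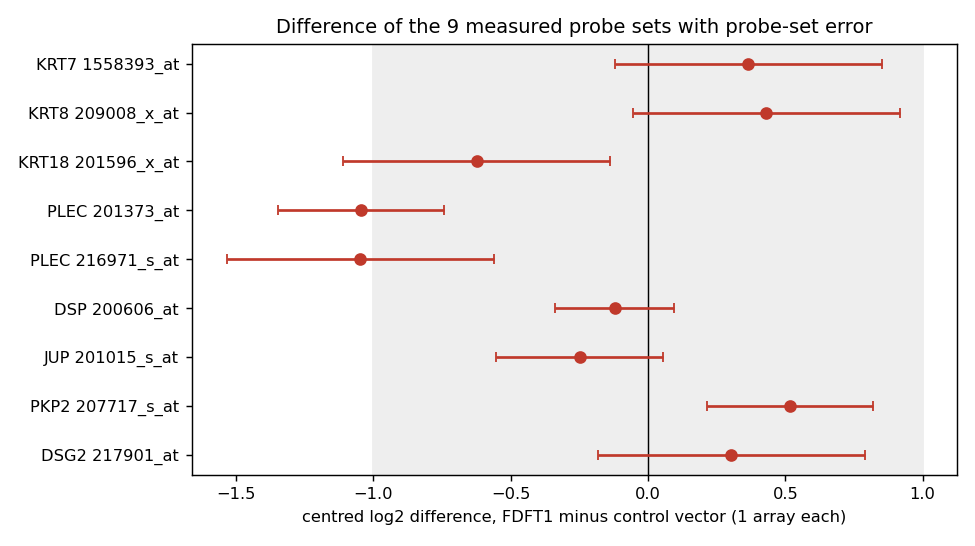
Centred log2 difference, FDFT1 minus control, of the 9 measured probe sets, with bars of 1 probe-set error each way. The shaded band spans less than 2-fold; the PLEC points are just outside it at -1.05, and the bars of KRT7, KRT8, DSP, JUP and DSG2 cross 0.

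The 3 measured probe sets of the desmosomal plaque genes lay well above the floor on both arrays. DSP, the link from the plaque to the filaments, had a signal of 261 on the FDFT1 array and 305 on the control array (200606_at). Its difference was -0.12, or 1.09-fold lower, with an error of 0.22. JUP, the plaque protein shared with adherens junctions, had a signal of 88.0 on the FDFT1 array and 113 on the control array (201015_s_at). Its difference was -0.25, or 1.19-fold lower, with an error of 0.30. The differences of DSP and JUP were 0.13 apart, against a combined error of 0.37.

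PKP2, the plakophilin of simple epithelia and heart, was on the other side of 0. Its signal was 127 on the FDFT1 array and 95.8 on the control array (207717_s_at), a difference of 0.52, or 1.43-fold higher, with an error of 0.30. It stood at place 471 from the highest of the 7848 probe sets in its signal range. The PKP2 difference was 0.77 above that of JUP, against a combined error of 0.43, and 0.64 above that of DSP, against 0.37. As the set was chosen with these arrays known, nothing is read from this place or from these gaps. The second PKP2 probe set gave 3.96 on the FDFT1 array and 0.429 on the control array (214154_s_at), both under the floor, so it gives no fold.

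DSG2, the desmosomal cadherin of simple epithelia, had a signal of 20.2 on the FDFT1 array and 17.6 on the control array (217901_at). Its difference was 0.30, with an error of 0.49. The other DSG2 probe set gave 4.69 on the FDFT1 array and 4.89 on the control array, under the floor. Over the desmosome genes, 2 of the 4 measured probe sets were above 0 and 2 below, and none was at least 2-fold different.

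**Figure D3:**
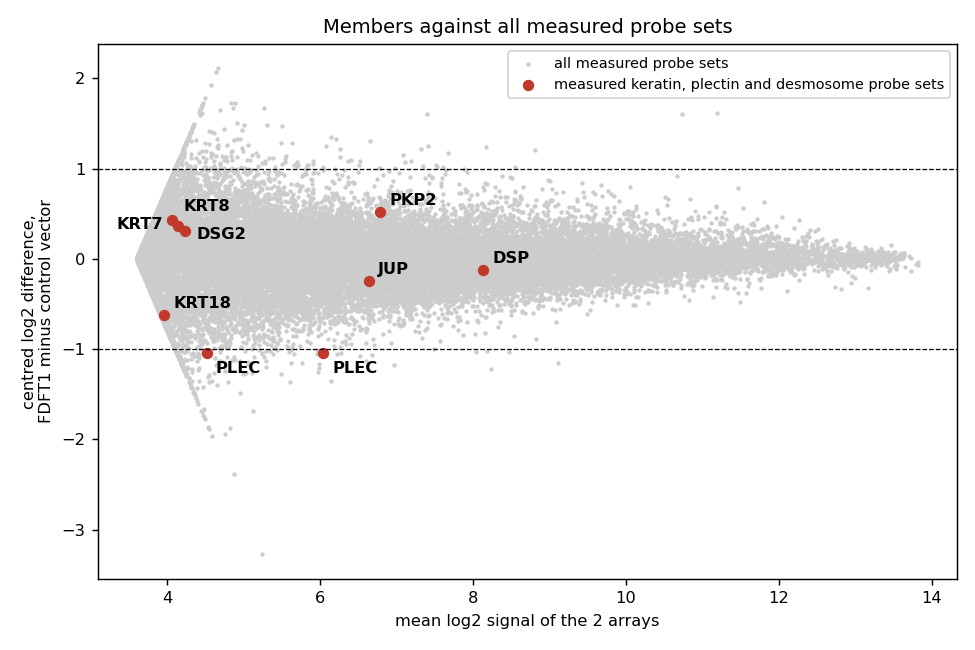
Centred log2 difference, FDFT1 minus control, against the mean log2 signal of the 2 arrays for the 29443 measured probe sets (grey), with the 9 measured keratin, plectin and desmosome probe sets in red. The dashed lines mark 2-fold; the spread widens at dim signals, where KRT7, KRT8, KRT18, DSG2 and 1 PLEC probe set lie.

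The start regions of 3 of these genes, DSP, JUP and KRT8, are shown as a description of their letters. The differences of all 3 lay within the error of a probe set. PKP2, the plaque gene on the other side of 0 from DSP and JUP, had no window. A link between these letters and the differences was not tested. RefSeq windows on GRCh38.p14 were found for 4 of the 9 genes (KRT8, DSP, JUP and DSG2), with 2 windows for JUP. Each sequence is the 250 bases before a listed start, 5′ to 3′ on the gene's strand, and capitals mark GC boxes (GGGCGG on either strand). The windows are chr12:52926470-52926719 on the minus strand for KRT8, chr6:7541421-7541670 on the plus strand for DSP, and chr17:41786712-41786961 and chr17:41785977-41786226 on the minus strand for JUP.
KRT8: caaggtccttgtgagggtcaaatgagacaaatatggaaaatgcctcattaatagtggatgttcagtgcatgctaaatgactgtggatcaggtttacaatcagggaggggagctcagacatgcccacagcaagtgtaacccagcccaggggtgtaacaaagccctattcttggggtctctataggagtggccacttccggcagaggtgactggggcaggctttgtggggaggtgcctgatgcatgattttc
DSP: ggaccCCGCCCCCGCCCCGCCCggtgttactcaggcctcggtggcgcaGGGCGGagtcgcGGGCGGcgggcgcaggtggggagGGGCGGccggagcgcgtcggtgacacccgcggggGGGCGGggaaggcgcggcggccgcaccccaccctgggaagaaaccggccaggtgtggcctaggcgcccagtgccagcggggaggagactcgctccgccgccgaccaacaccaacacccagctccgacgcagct
JUP, window 1: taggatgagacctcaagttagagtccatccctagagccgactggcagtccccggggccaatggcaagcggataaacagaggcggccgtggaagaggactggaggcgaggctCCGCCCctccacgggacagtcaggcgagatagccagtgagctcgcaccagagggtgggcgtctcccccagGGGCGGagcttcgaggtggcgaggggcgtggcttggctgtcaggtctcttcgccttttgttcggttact
JUP, window 2: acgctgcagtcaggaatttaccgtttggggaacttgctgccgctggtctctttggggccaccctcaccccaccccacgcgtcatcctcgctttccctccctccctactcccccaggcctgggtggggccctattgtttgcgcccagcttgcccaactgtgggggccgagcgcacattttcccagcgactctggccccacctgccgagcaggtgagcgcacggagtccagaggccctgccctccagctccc

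The DSP window held 7 GC boxes, some of which overlap by a base, the first JUP window and the DSG2 window held 2 each, and the KRT8 window and the second JUP window held 0. Of all 35116 windows of this length in the table, 42.6% held at least 1. The E-box letters CAGGTG, counted on both strands, were found 2 times each in the windows of DSP and DSG2 and in the second JUP window, and 17.5% of all windows held them. A CCAAT box was found once, in the first JUP window (32.0% of all windows), while TATAAA (10.7%) and the AP-1 letters TGANTCA (6.57%) were in none of the 5 windows. The GC content was 50.4% for KRT8, 78.0% for DSP, 63.6% and 66.0% for JUP and 75.2% for DSG2, against a median of 58.0% over all windows. A match is a run of letters and not a shown binding site. Which start CL1-0 cells use was not tested, so a window, such as the only one listed for KRT8, may not be the promoter in use.

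Other genes of the same structures were compared through lists, each gene by its brightest measured probe set. The 6 lists hold other keratins, other desmosome genes, other plakin and hemidesmosome genes, other intermediate filaments and lamins, adherens and tight junction genes, and epithelial identity and splicing regulators. None of their measured genes was at least 2-fold different; over all 12968 measured genes 0.571% were at least 2-fold higher and 0.578% at least 2-fold lower, 49.8% lay above 0 and 50.2% below, and the median was -0.0013. Of 36 other keratins, 29 had a probe set and 3 were measured, 2 above 0 and 1 below, with a median of 0.38. KRT10, a type I keratin of differentiated epidermis, was the bright one, with a signal of 869 on the FDFT1 array and 716 on the control array. Its difference was 0.38 with an error of 0.16, and all 3 of its probe sets were higher, from 0.16 to 0.41. The dim KRT9 was at -0.80 (12.8 on the FDFT1 array, 23.9 on the control array), and KRT2 was at least 0.41 above a control signal under the floor (15.6 on the FDFT1 array, 1.37 on the control array).

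Of 11 other desmosome genes 4 were measured, 3 above 0 and 1 below, with a median of 0.11. DSC2, the desmocollin that pairs with DSG2 in simple epithelia, had a signal of 14.0 on the FDFT1 array and 22.5 on the control array, a difference of -0.58 with an error of 0.49. PKP3, another plakophilin, was at least 0.34 higher against a control value set to the floor (14.9 on the FDFT1 array, 9.80 on the control array). PERP, a desmosome-associated membrane protein, was at 0.14 with an error of 0.16 (637 on the FDFT1 array, 624 on the control array). PKP4, a plakophilin-related protein, was at 0.08 on its brightest probe set (562 on the FDFT1 array, 571 on the control array), which is lower as deposited, and its 5 probe sets ranged from -0.68 to 0.08. DSC1, DSC3, DSG1, DSG3, DSG4, PKP1 and CDSN, known from stratified epithelia, were not measured.

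Among 12 other plakin and hemidesmosome genes 9 had a probe set of their own and 7 were measured. Of these 7, 5 lay above 0 and 2 below, with a median of 0.12. CD151, a tetraspanin of hemidesmosomes, was at -0.22 with an error of 0.16 (464 on the FDFT1 array, 583 on the control array). ITGB4, the integrin chain that binds plectin in hemidesmosomes, was at 0.28 with an error of 0.49 (17.1 on the FDFT1 array, 15.1 on the control array). DST, the plakin dystonin, was at -0.01 on its brightest probe set (213 on the FDFT1 array, 231 on the control array), with its 4 probe sets between -0.11 and 1.02. PLEC, at -1.05, lay lower than each of these 7 genes, as a comparison of brightest probe sets on 1 array per group.

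Of 14 other intermediate filament genes and lamins 12 were measured, 6 above 0 and 6 below, with a median of 0.04, which turned to -0.07 without centring. VIM, vimentin, the filament of mesenchymal cells and a plectin ligand, was at 0.12 with an error of 0.097 (8162 on the FDFT1 array, 8101 on the control array), and its other probe set lay at -0.14. NEFM, a neurofilament chain, was at 0.78 with an error of 0.49 (34.2 on the FDFT1 array, 21.5 on the control array), and INA, internexin, was at -0.39 with an error of 0.22 (118 on the FDFT1 array, 166 on the control array). SYNC, syncoilin, was at 0.24 and LMNB2, lamin B2, at -0.20. Of 17 adherens and tight junction genes 14 had a probe set of their own and 9 were measured. Of these 9, 4 lay above 0 and 5 below, with a median of -0.05. CTNNB1, beta-catenin, was at 0.24 on its brightest probe set, with 1 of 3 probe sets higher, and TJP1 was at 0.03, though lower as deposited (1566 on the FDFT1 array, 1648 on the control array). CLDN3 and CLDN1 were at least 0.38 and 0.32 lower, each against an FDFT1 signal under the floor.

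**Figure D4:**
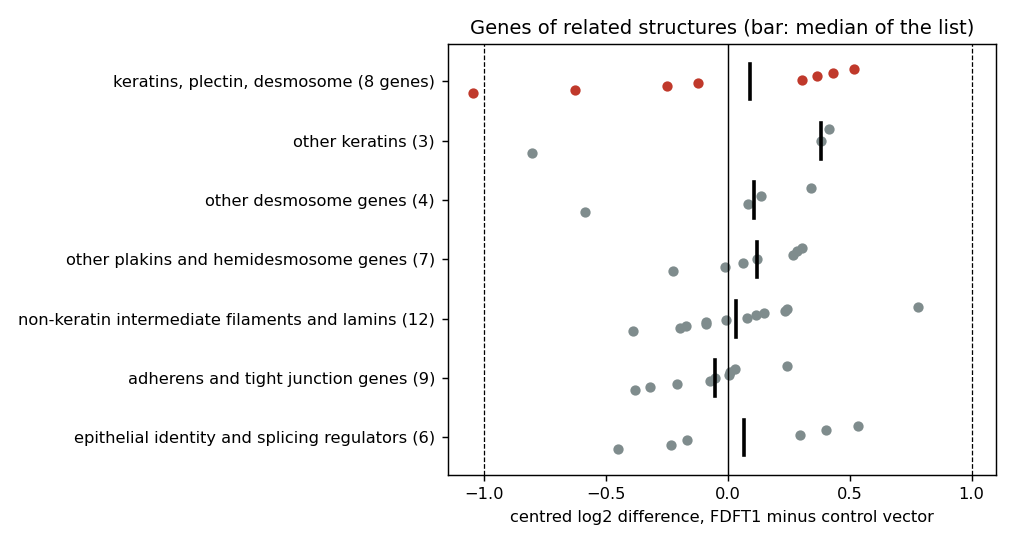
Centred log2 difference, FDFT1 minus control, of each measured gene (brightest probe set) in the keratin, plectin and desmosome set (red, 8 genes) and in the 6 lists of related structures (grey), with a black bar at each median. The dashed lines mark 2-fold; PLEC, at -1.05, is the point left of the lower line, and the medians of the 7 sets drawn lie between -0.05 and 0.38.

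The epithelial label was set against its defining genes. CDH1, E-cadherin, was not measured, with 10.8 as its highest signal. EPCAM, an epithelial adhesion molecule, had a signal of 14.4 on the FDFT1 array and 5.63 on the control array. With the control signal under the floor, EPCAM was at least 0.30 higher, with an error of 0.49. Of 12 epithelial identity and splicing regulators 10 had a probe set of their own and 6 were measured. Of these 6, 3 lay above 0 and 3 below, with a median of 0.07. GRHL1 was at 0.53 with an error of 0.30 and both probe sets higher, KLF5 was at 0.40 with 1 of 2 probe sets higher, the brighter OVOL1 probe set lay at -0.23 but its second at 0.98, and RBM47 was at least 0.45 lower. Of 13 alveolar type II markers 11 had a probe set of their own and 7 were measured. Of these 7, 3 lay above 0 and 4 below, with a median of -0.14. Their signals as deposited, without centring, summed to 1263 on the FDFT1 array and 1543 on the control array, most of it from LPCAT1. SFTPC and ABCA3 were at -0.69 and -0.42, LAMP3 was at 0.26, and SFTPB was at 0.25 on its brighter probe set but at -0.79 on the other. SFTPD, NAPSA, SLC34A2 and PGC were not measured. LPCAT1 was at -0.14 (787 on the FDFT1 array, 934 on the control array). ETV5 was at -0.34 (281 on the FDFT1 array, 383 on the control array), with all 4 of its probe sets lower. NKX2-1 was at 0.02 on its brightest probe set (29.3 on the FDFT1 array, 31.1 on the control array), which is lower as deposited. Both NKX2-1 probe sets lay above 0 after centring. LPCAT1, ETV5 and NKX2-1 were the other measured type II markers, named after their values were seen. As the floor is a median and not a detection call, a gene that was not measured is not shown to be absent, and these signals do not settle the labelled cell type.

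Markers of other cell types were set beside these values. The fibroblast and endothelial list had 4 of 14 genes measured, with a median of 0.33, which turned to -0.04 with the mean of each gene's probe sets. Their signals as deposited summed to 878 on the FDFT1 array and 793 on the control array. Most of that was POSTN, named after its values were seen (760 on the FDFT1 array, 694 on the control array). POSTN was at 0.24 on its brightest probe set and at -0.11 on the other. COL1A1 was at 0.45 on its brightest probe set, but 2 of its 3 probe sets were lower, down to -0.77. PECAM1 was at 0.41 and DCN at -0.15, and COL1A2, COL3A1, LUM, VWF and CDH5 were not measured. The blood and immune list had 11 of 13 genes with a probe set of their own and 4 measured. Its summed signal as deposited was 86.4 on the FDFT1 array and 79.7 on the control array, with a median difference of 0.23. HBB was at 0.58 and CD79A at -0.21, and ITGAM was at least 0.27 higher against a control signal under the floor. Their part in the keratin, plectin and desmosome values was not tested. In a bulk RNA sample, fewer cells with a transcript and less of it per cell cannot be told apart.

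**Figure D5:**
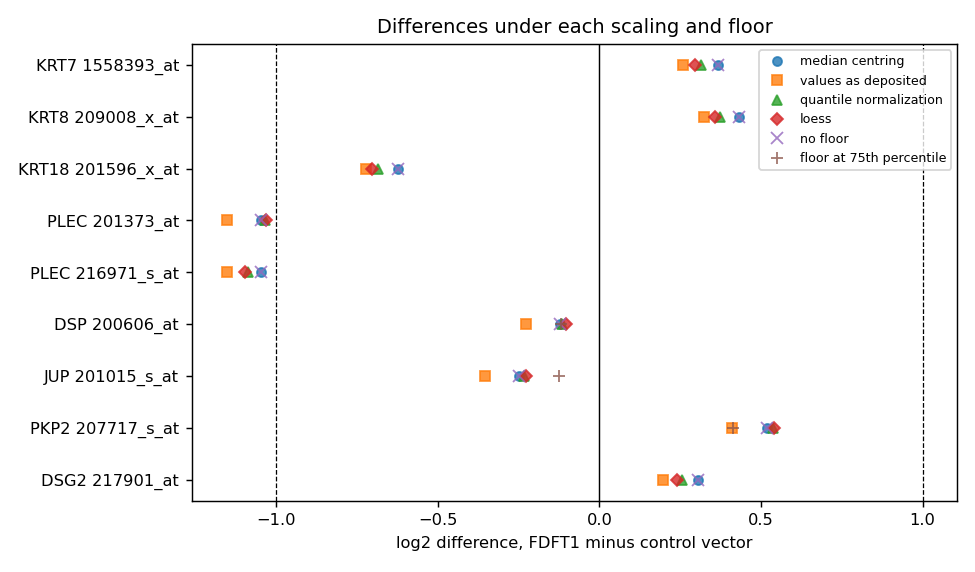
Log2 difference, FDFT1 minus control, of the 9 measured probe sets under median centring and 5 other settings of scaling or floor, 1 symbol per setting. The dashed lines mark 2-fold; each probe set keeps its side of 0, and the PLEC probe sets stay between -1.15 and -1.03 wherever they were measured.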

How the data were processed

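RNA of 2 CL1-0 samples was measured on Affymetrix arrays, 1 for FDFT1 and 1 for control. The titles gave the groups. The authors deposited linear signal intensities made with MAS5, per the submitters' processing notes. That method corrects each probe by its mismatch probe and applies 1 scale factor per array, so dim values are noisy. The version, the scaling target and any detection calls were not stated in the labels. Without the 62 control probe sets, 54613 remained. Of these, 41091 had 1 gene in the platform annotation, and no probe set listed a member beside other genes.

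Signals were put on the log2 scale with Python 3.11.15, numpy 2.4.6, pandas 2.3.3 and statsmodels 0.14.6. The median difference over 25203 probe sets at or above the floor on both arrays, -0.11, was removed, in equal parts from each array, and then the floor was set. The probe-set error was taken over genes whose brightest 2 probe sets fell in 1 signal range, as the SD of the gap between their differences divided by the square root of 2. A difference was counted at 2-fold (1 on the log2 scale). The members and lists were chosen with earlier results of these data known. All probe sets of the members are given. Of each list, up to 2 genes with the largest difference each way are named, plus VIM, CDH1, EPCAM, ITGB4, DST, DSC2, PKP3 and PKP4. Measured list genes named beyond this rule are marked as such in the text. With 1 array per group there is no test, and the number of arrays limits the precision. The steps were tested on simulated data, with noise smaller than the probe-set error and changes larger than 2-fold placed only in brighter probe sets. That test does not cover dim signals or differences near 2-fold. Alternatives in scaling, floor, threshold, probe-set type and probe-set summary were run.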

Additional observations from a re-analysis of the deposited data

How the results depend on the processing

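All 39 values of the 9 measured probe sets under other scalings and floors moved by less than the probe-set error, and 0 changed sign. Part of this was fixed in advance. With no floor the values could not move, since all 9 lay above the floor on both arrays after scaling. As deposited they could move by no more than the centring of 0.11, which is less than their smallest error of 0.22. With the floor at the 75th percentile (99.4) only DSP, JUP and PKP2 were measured, so 0 member probe sets were at least 2-fold lower. PLEC had no value there, since its higher scaled signal fell short of that floor. At 3-fold 0 were lower, and without _x_at and _s_at probe sets 1 of 4 was lower, the brighter PLEC probe set. At 1.5-fold 3 were lower, KRT18 besides PLEC. As deposited, PLEC was at -1.15 on both probe sets, and the median over all measured probe sets was -0.098. The median of the members was 0.09 in place of -0.12 with 1 value per gene or without _x_at and _s_at probe sets.

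Over all measured probe sets, 1043 were at least 2-fold lower and 1398 higher with no floor, 5 lower and 16 higher with the floor at the 75th percentile, and 152 higher as deposited. With no floor, 1 gene was at least 2-fold higher among the other keratins, the epithelial regulators and the blood markers each, and 1 lower among the junction genes and the epithelial regulators each. At 1.5-fold, 1 was lower among the other keratins and the type II markers each, and 1 higher among the non-keratin filaments. Of 197 list values under alternatives, 189 stayed within the probe-set error or 1.5 times the count. Many of the 197 are counts, and no list gene was at least 2-fold different in the main setting. The counts at 3-fold could therefore not differ, and the 189 are not read as a measure of stability. Several list medians still changed sign: the non-keratin filaments were at -0.07 as deposited and -0.015 with the mean of probe sets, the other desmosome genes at -0.010 and the fibroblast and endothelial markers, at 0.33 by the brightest probe set, at -0.04 with that mean, and the junction genes at 0.0096 with the higher floor and 0.0049 with that mean. No paired analysis was possible because each group has 1 array and the labels give no replicate numbers. Leaving out a replicate was not possible for the same reason. Dim signals limit the keratins and DSG2 in particular.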
